A study of Homo sapiens with 12 samples.

Results

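The F-box and TRIM families supply substrate-choosing parts of many ubiquitin ligases, and their transcripts were followed in A549 cells, a long-established line from a human lung carcinoma. Members were the protein-coding genes of the expression table whose symbol starts with FBXO, FBXL or FBXW, or with TRIM and a digit, with 1 F-box gene left out by the rule. This gave 137 of 58676 genes, of which 62 were F-box genes (37 FBXO, 17 FBXL and 8 FBXW) and 75 were TRIM genes. RNA sequencing covered 12 libraries in 6 groups of 2. The groups were a control line (genotype Control1) and the lines NFE2L1 KO1 and NFE2L1 KO2, each kept in DMEM and given DMSO as vehicle or bortezomib, which inhibits the proteasome, for 4 h at 200 nM. The labels do not say whether a line is 1 clone, and nothing says that the 2 libraries of a group came from separate cultures, so p-values measure only the spread between these libraries.

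An SCF ligase is built from the scaffold CUL1, the RING protein RBX1, the adaptor SKP1 and an interchangeable F-box protein that binds the substrate. FBXW proteins bind it through WD40 repeats, FBXL proteins through leucine-rich repeats, and FBXO proteins carry other domains or none. Most TRIM proteins hold the whole ligase in 1 chain, with a RING finger, B-boxes and a coiled coil in front of a variable C-terminal domain that often reads the substrate. Bortezomib blocks the proteasome, which degrades the substrates of both families. NFE2L1 encodes a transcription factor of proteasome subunit genes that is itself turned over by ubiquitination.

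The libraries held 13211608 to 23819258 reads assigned to genes, and 3 reads on a gene of 1 kilobase corresponded to 0.126 to 0.227 FPKM (fragments per kilobase, scaled to library depth). NFE2L1 was at 72.7 and 151 FPKM in the vehicle-treated control line, at 8.45 and 14.8 in KO1 and at 18.6 and 33.6 in KO2. Of the epithelial markers, KRT8 (126 to 703 FPKM) and KRT18 (112 to 586) were high in each library, and EPCAM (1.25 to 10.6) and CDH1 (1.42 to 9.53) were low. The alveolar markers SFTPB, SFTPC and NKX2-1 were at or below 0.13 and NAPSA at or below 0.732. Of 6 markers of other cell types, the immune marker PTPRC and the endothelial markers PECAM1 and VWF stayed at or below 0.06 and the collagen COL1A2 at or below 0.408. CD14 was at 0.714 to 3.63 in vehicle and 0 to 0.815 in bortezomib, and the collagen COL1A1 at 1.42 to 5.18 in vehicle and 6.10 to 23.3 in bortezomib. Both moved with the treatment. EPCAM was also higher and CDH1 lower after bortezomib in each pair of libraries of the same line and suffix. KRT8 differed by line, at 126 to 285 in the control line and 397 to 703 in KO2. The aldo-keto reductases AKR1B10 (545 to 1597), AKR1C2 (62.1 to 320) and AKR1C1 (6.23 to 54.3) had reads in each library. The part of these markers in the results was not tested. The mitochondrial share of reads was 12.3% to 19.3% in libraries suffixed R2 and 5.44% to 6.80% in their partners, in each group alike. With mitochondrial genes left out of the scaling, 4 F-box and 7 TRIM genes were called for bortezomib over the 3 lines, the same counts as with them. The fold changes below are log2(FPKM + 1) differences, which understate the change of low genes, and a gene was called at a Benjamini-Hochberg adjusted p under 0.05 in limma over the 12194 genes that averaged at least 1 FPKM. A second fit added the title suffix as a replicate term, because libraries with the same suffix deviated together. Unnumbered titles occur in the control line alone and R1 titles in the KO lines alone. With this term, KO minus control differences averaged over the treatments therefore rest on the R2 libraries.

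The member that rose most with bortezomib was TRIM26 and the member that fell most was FBXO5, so their upstream sequence is shown, from RefSeq (GRCh38.p14, 250 bases before the annotated start, without the part that lies in an exon of the same gene). The FBXO5 stretch overlaps an exon of AL080276.2. Capitals in the TRIM26 stretch mark the cAMP response element core TGACGT and the CCAAT box, the latter also in its reverse form ATTGG. The TRIM26 stretch is chr6:30213428-30213656 and the FBXO5 stretch is chr6:152983580-152983829, both on the minus strand and written 5′ to 3′.
TRIM26: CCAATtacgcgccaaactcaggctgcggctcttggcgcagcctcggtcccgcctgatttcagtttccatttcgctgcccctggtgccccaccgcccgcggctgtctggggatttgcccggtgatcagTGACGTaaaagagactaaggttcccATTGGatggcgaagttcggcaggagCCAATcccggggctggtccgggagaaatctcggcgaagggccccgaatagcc
FBXO5: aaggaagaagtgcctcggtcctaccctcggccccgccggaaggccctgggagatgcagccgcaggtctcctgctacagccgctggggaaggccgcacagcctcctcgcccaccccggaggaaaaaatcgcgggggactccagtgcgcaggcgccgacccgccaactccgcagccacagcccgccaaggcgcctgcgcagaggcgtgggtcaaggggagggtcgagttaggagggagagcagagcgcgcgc

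The TRIM26 stretch held 1 TGACGT and 3 CCAAT boxes, counted on both strands. Among all 35116 promoter windows of 250 bases, 7.1% held TGACGT and 32.0% held CCAAT. The FBXO5 stretch held neither, nor the heat shock element core GAANNTTC (5.78% of all windows), the antioxidant response element core TGACNNNGC (10.9%) or the cell cycle element TTTGAA (13.3%). A second annotated FBXO5 start, 538 bases inside the gene, had 4 CCAAT boxes and 1 TTTGAA in its window, which lies in a FBXO5 exon and is not printed. These matches describe letters only. Promoter windows were found for 107 of the 137 members.

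A larger share of the F-box family than of the TRIM family was expressed in these cells. A mean of at least 1 FPKM over the 12 libraries was reached by 47 of 62 F-box genes (75.8%) and by 36 of 75 TRIM genes (48.0%), beside 53.7% of all protein-coding genes. Of the F-box genes, 28 of 37 FBXO, 13 of 17 FBXL and 6 of 8 FBXW members reached it. No read was assigned in any library to 2 F-box genes, FBXO39 and FBXO40, or to 19 TRIM genes. Among these 19 were TRIM63, a muscle ligase of the MURF type, and the primate-expanded TRIM48, TRIM49 and TRIM64 groups, whose near-identical copies can share reads. The joint entries TRIM6-TRIM34 and TRIM39-RPP21 were also among the 19. The other untested members averaged 0.0184 to 0.984 FPKM in the F-box family (13 genes) and 0.0035 to 0.759 FPKM in the TRIM family (20 genes).

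Levels per length spanned a wider range among TRIM genes. TRIM28 (KAP1), a co-repressor recruited by KRAB zinc finger proteins, averaged 149 FPKM and was the highest member. TRIM16L, a short relative of TRIM16, followed at 34.0 FPKM. FBXW5, a WD40 F-box protein, was the highest F-box gene at 41.2 FPKM, and the next was FBXW11 at 13.98 FPKM. FBXW11 and its paralog BTRC are the β-TrCP proteins, which recognise phosphorylated degrons, including those in NFE2L1. At least 10 FPKM was reached by 5 F-box and 9 TRIM genes, and the medians of the tested members were 4.39 FPKM and 5.31 FPKM.

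**Figure D1:**
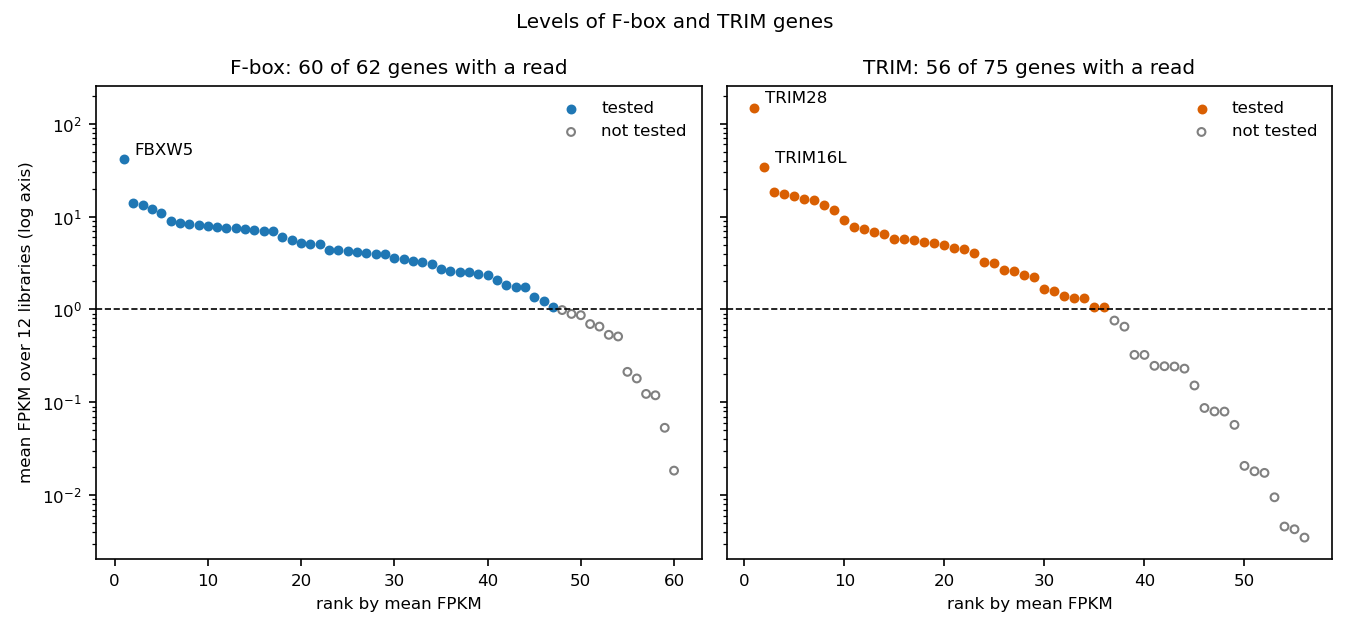
Mean FPKM over the 12 libraries (log axis) of each F-box gene (left, 60 of 62 with a read) and TRIM gene (right, 56 of 75 with a read), ranked from high to low, with open circles for genes below the dashed line at 1 FPKM, which were not tested. The TRIM series starts higher, at 149 FPKM for TRIM28, and drops below 1 FPKM earlier.

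Over the 3 lines together, bortezomib raised 2 and lowered 2 of the 47 tested F-box genes, and raised 2 and lowered 5 of the 36 tested TRIM genes. The called F-box genes were FBXO41 and FBXO2, which rose, and FBXO5 and FBXO43, which fell. The called TRIM genes were TRIM26 and TRIM62, which rose, and TRIM6, TRIM59, TRIM65, TRIM45 and TRIM66, which fell. Of all genes tested, 11.6% were called in this comparison, beside 4 of 47 F-box genes (8.51%) and 7 of 36 TRIM genes (19.4%). With the replicate term 54.9% of all genes were called, beside 24 of 47 F-box genes (51.1%) and 22 of 36 TRIM genes (61.1%). In that fit 27% of all genes were higher and 27.9% lower, whereas the called F-box genes were 16 higher and 8 lower and the called TRIM genes 9 higher and 13 lower. Leaving out 1 library at a time gave 3 to 4 F-box calls and 3 to 6 TRIM calls without the replicate term. Each of these fits also called fewer of all genes tested than the fit to all libraries. With all 12 libraries the median change was 0.03 for F-box genes, -0.09 for TRIM genes and -0.01 for all genes tested. Both family medians thus lay close to 0.

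**Figure D2:**
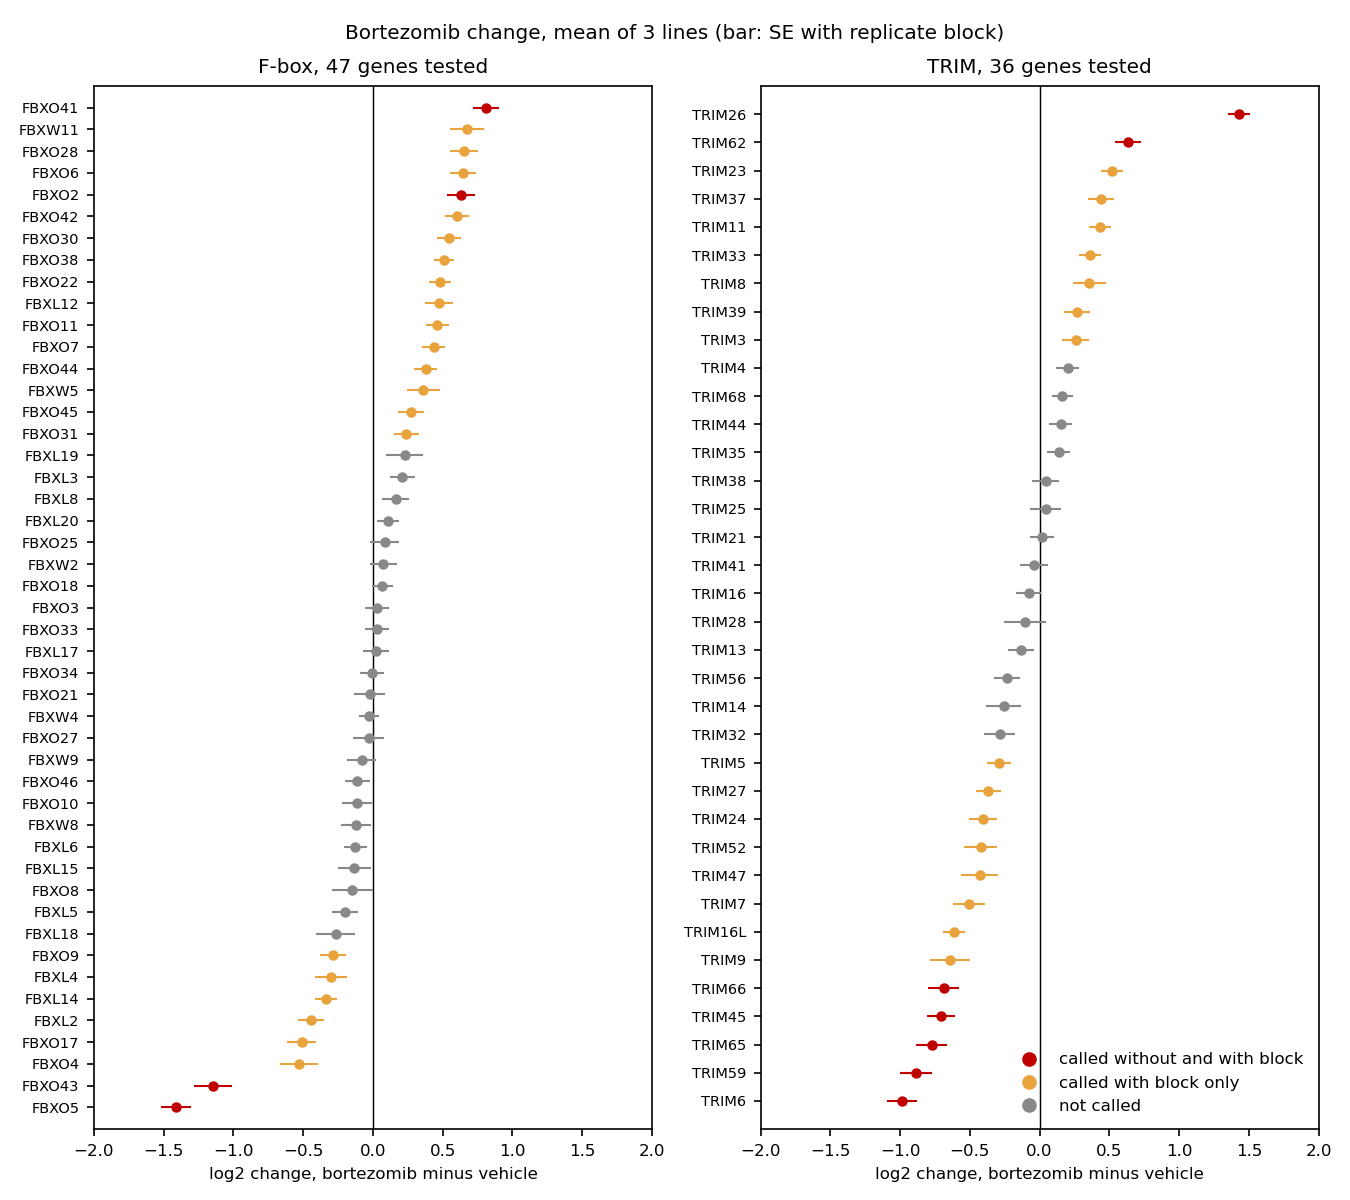
Log2(FPKM + 1) change by bortezomib, averaged over the 3 lines, for the 47 tested F-box genes (left) and 36 tested TRIM genes (right), sorted, where bars are the standard error of the fit with the replicate term. Red points were called in both fits, orange points with the replicate term alone and grey points in neither, and the extremes are TRIM26 at 1.43 and FBXO5 at -1.41.

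FBXO5 and FBXO43 encode EMI1 and EMI2, F-box proteins known as inhibitors of the anaphase-promoting complex rather than as SCF subunits. FBXO5 was at 9.90 and 6.43 FPKM in vehicle and 2.49 and 2.11 in bortezomib in the control line, at 10.5 and 4.81 against 2.71 and 1.44 in KO1, and at 10.4 and 6.16 against 2.88 and 2.28 in KO2. Its 6 vehicle libraries all lay above its 6 bortezomib libraries, and the change was -1.41 ± 0.23 (SE, limma adjusted p = 0.00513). FBXO43 is a low gene, with 17 to 382 reads per library. It was at 4.06 and 3.89 FPKM in the vehicle-treated control line and at 1.20 to 3.08 in vehicle in the KO lines. After bortezomib its 6 libraries lay between 0.324 and 1.25 FPKM. The highest treated library thus just passed the lowest untreated one, and the change was -1.15 ± 0.22 (SE, limma adjusted p = 0.0102).

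Of 6 tested F-box genes that carry other names, CCNF and SKP2 fell (33.3%, beside 11.6% of all genes). CCNF (cyclin F), an F-box protein of the G2 phase, lay between 8.42 and 13.3 FPKM in vehicle and between 1.34 and 2.34 in bortezomib. Its change was -2.05 ± 0.17 (SE, limma adjusted p = 0.00023). SKP2, which targets the cyclin-dependent kinase inhibitor p27, lay between 6.08 and 9.23 FPKM in vehicle and between 2.05 and 3.17 in bortezomib, a change of -1.22 ± 0.15 (SE, limma adjusted p = 0.00151). The histone demethylases KDM2A (0.79) and KDM2B (0.35) were higher and called with the replicate term alone, while BTRC (0.20) and TSPAN17 (-0.02) were called in neither fit.

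FBXO41, known mainly from neurons, was the F-box gene with the largest rise. It was at 2.71 and 2.68 FPKM in vehicle and 4.30 and 4.97 in bortezomib in the control line, at 2.14 and 1.96 against 3.60 and 5.21 in KO1, and at 1.43 and 1.802 against 3.72 and 4.89 in KO2. No vehicle library reached the lowest bortezomib library, and the change was 0.81 ± 0.14 (SE, limma adjusted p = 0.00781). A further 14 F-box genes were higher in the fit with the replicate term alone. Among them FBXW11 (0.67), FBXO28 (0.65), FBXO6 (0.65), FBXO42 (0.60) and FBXO30 (0.55) had limma adjusted p-values of 0.10 to 0.331 without that term. Each was higher in 6 of 6 pairs of libraries with the same suffix. Of all genes tested, 24.8% were higher and 23.8% lower in 6 of 6 pairs, so this pattern is common. The shares were 29.8% and 10.6% for F-box genes and 19.4% and 27.8% for TRIM genes. FBXW11 went from 16.3 to 21.8 FPKM in the unnumbered control libraries and from 5.68 to 11.1 FPKM in the R2 control libraries. Its replicates thus lay farther apart than its treatments.

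The F-box proteins with an FBA domain, several of which bind N-linked glycans on proteins leaving the endoplasmic reticulum, are encoded in clusters on chromosomes 1 and 19, and no test of position was made. FBXO2 (chr1:11648367-11655785), FBXO44, which overlaps it on the other strand, and the neighbouring FBXO6 (chr1:11664124-11674354) were each higher in 6 of 6 pairs. FBXO2 was at 3.06 and 1.49 FPKM in vehicle and 6.25 and 5.08 in bortezomib in the control line, at 1.11 and 0.785 against 2.04 and 1.11 in KO1, and at 1.73 and 1.11 against 2.34 and 2.21 in KO2. Its vehicle and bortezomib groups overlapped, and the change over the lines was 0.63 ± 0.18 (SE, limma adjusted p = 0.0487). This call was lost in 11 of the 12 fits that left out 1 library. FBXO2 and FBXO44 cannot be told apart where they overlap, since the sources used here do not give the counting's strand setting. On chromosome 19, FBXO17 was lower in 6 of 6 pairs (-0.51, called with the replicate term alone) and its neighbour FBXO27 was called in neither fit (-0.03). The list had 1 of 5 members called, beside 11.6% of all genes, or 4 of 5 with the replicate term (3 higher and 1 lower), beside 54.9%, with a median change of 0.38.

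The calls among F-box genes lay mostly in the FBXO class, which held 28 of the 47 tested F-box genes. The difference between classes was not tested. Without the replicate term no FBXL gene (of 13) and no FBXW gene (of 6) was called, beside 11.6% of all genes. Unadjusted limma p-values in that fit were under 0.05 for 1 FBXL and 0 FBXW genes, beside 3275 of 12194 genes tested. With the replicate term 4 FBXL genes were called, 1 higher and 3 lower, and 2 FBXW genes, both higher. In that fit 18 of 28 FBXO genes were called, beside 54.9% of all genes. FBXL14, a ligase for epithelial-mesenchymal transition factors, and FBXL2 were among the FBXL genes that were lower, at -0.34 and -0.44. FBXL5, the iron-sensing F-box protein that targets IRP2, changed by -0.20 and FBXL17, a quality-control factor for BTB protein dimers, by 0.02, and neither was called in either fit.

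Of 8 tested genes for the SCF core and accessory factors, 0 were called without the replicate term, beside 11.6% of all genes. With it 4 of 8 were called, beside 54.9% of all genes: CUL1 (0.54) and the chaperone cofactor SUGT1 (0.69) were higher, and RBX1 (-0.50) and the exchange factor CAND1 (-0.26) lower. SKP1, the adaptor that each F-box protein docks to, lay between 3.62 and 8.46 FPKM in vehicle and between 4.18 and 7.72 in bortezomib, and was called in neither fit. Among 10 genes of cullin neddylation, which switches SCF ligases on, 2 were called, beside 11.6% of all genes. These were the NEDD8 ligase cofactors DCUN1D2 (0.65, limma adjusted p = 0.0167) and DCUN1D3 (0.64, limma adjusted p = 0.0295), which rose. With the replicate term 8 of the 10 were called, 6 higher and 2 lower, beside 54.9% of all genes, and NEDD8 itself was lower (-0.46). Of 9 genes of the COP9 signalosome, which removes NEDD8, none was called without that term, beside 11.6% of all genes. With the term 1 gene, COPS2 (0.83), was called, beside 54.9% of all genes. Unadjusted limma p-values without the term were under 0.05 for 1 SCF core gene and 0 COP9 genes, beside 3275 of 12194 genes tested.

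TRIM26, a RING ligase gene of the class I histocompatibility region (chr6:30184455-30213427), had the largest rise in either family. It was at 10.9 and 4.997 FPKM in vehicle and 28.3 and 15.3 in bortezomib in the control line, at 11.4 and 6.04 against 31.6 and 18.3 in KO1, and at 10.8 and 7.27 against 33.5 and 21.8 in KO2. Within each pair the bortezomib library was far above its partner, and no vehicle library reached a treated one. The change was 1.43 ± 0.29 (SE, limma adjusted p = 0.0142), or 1.37, 1.42 and 1.51 for the control, KO1 and KO2 lines. Of the other family members on the same chromosome arm, TRIM39 (0.27), TRIM27 (-0.37) and FBXO9 (-0.29) were called with the replicate term alone and TRIM38 (0.04) in neither fit. TRIM62, a ligase tied to epithelial polarity, was a low gene that lay between 0.323 and 1.36 FPKM in vehicle and between 1.33 and 2.45 in bortezomib, with overlap at the edges. Its change was 0.63 ± 0.16 (SE, limma adjusted p = 0.0334), and the call was lost in 9 of 12 fits with 1 library left out.

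Each of the 5 TRIM genes that fell had all 6 bortezomib libraries below all 6 vehicle libraries. TRIM6, which builds unanchored ubiquitin chains in interferon signalling, was at 5.31 and 3.24 FPKM in vehicle and 2.13 and 1.37 in bortezomib in the control line, at 6.10 and 3.33 against 2.42 and 1.72 in KO1, and at 5.43 and 4.52 against 1.57 and 1.75 in KO2. Its change was -0.98 ± 0.19 (SE, limma adjusted p = 0.0102). TRIM59, which carries a transmembrane segment, went from a range of 2.48 to 4.38 FPKM to one of 1.14 to 1.55, a change of -0.89 ± 0.15 (SE, limma adjusted p = 0.00547). TRIM59 overlaps SMC4 on the other strand, so its reads are uncertain. The same holds for TRIM6 and TRIM62, which overlap AC015691.13 and RP11-131M11.3 on the other strand, and for TRIM26, which holds PAIP1P1 on its own strand. An annotated gene with at least 1 read overlapped 51 of the 83 tested members, 32 F-box and 19 TRIM genes. Entries without a read, among them TRIM6-TRIM34 and TRIM39-RPP21, were left out of this count. TRIM65, a ligase for the RNA sensor MDA5 and the most abundant of the 5, went from 15.9 to 21.7 FPKM in vehicle to 9.11 to 13.1 in bortezomib, a change of -0.77 ± 0.19 (SE, limma adjusted p = 0.0289). TRIM45 (-0.71, limma adjusted p = 0.0188) and TRIM66 (-0.69, limma adjusted p = 0.0342) averaged only 1.38 and 1.06 FPKM. With 1 library left out, TRIM65 lost its call in 10 of 12 fits, TRIM66 in 9 and TRIM45 in 4. Counting both families, groups that did not overlap were found for FBXO41 and TRIM26 above and for FBXO5 and these 5 TRIM genes below, that is 1 and 1 of 47 F-box genes and 1 and 5 of 36 TRIM genes. Among all genes tested the shares were 4.35% above and 5.4% below, with 11.6% called.

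**Figure D3:**
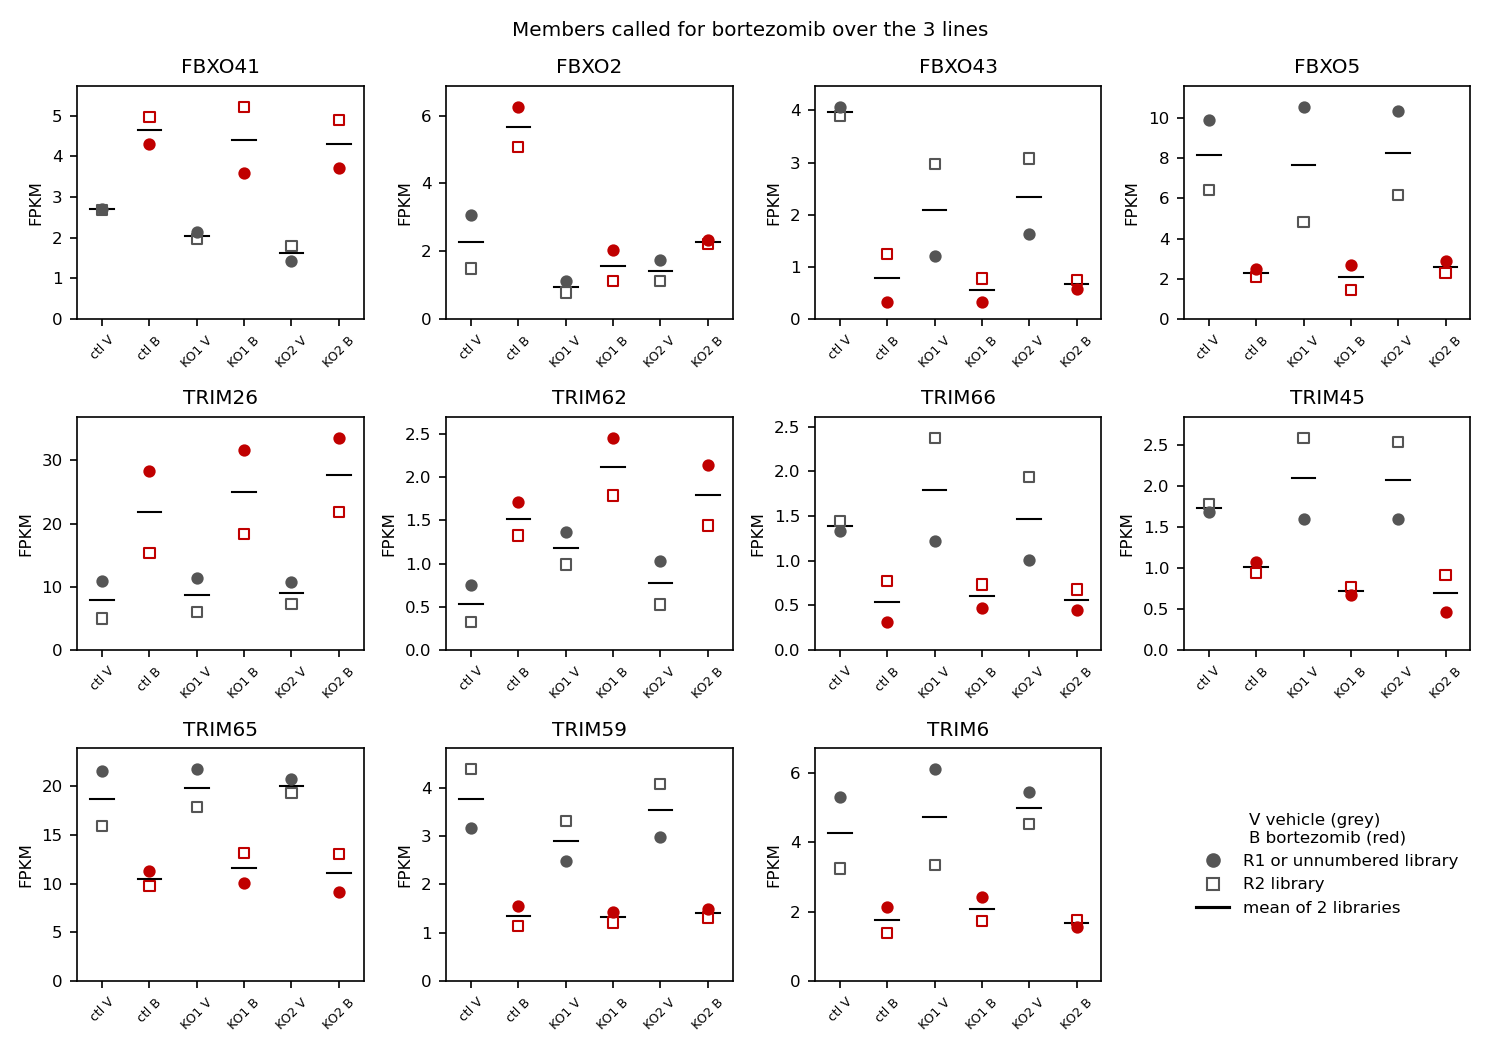
FPKM in each of the 12 libraries for the 4 F-box and 7 TRIM genes called for bortezomib over the 3 lines, by line (ctl, KO1, KO2) and treatment (V vehicle in grey, B bortezomib in red), with squares for R2 libraries, circles for their partners and a bar at the mean of 2. In the FBXO41, FBXO5, TRIM26, TRIM66, TRIM45, TRIM65, TRIM59 and TRIM6 panels the red and grey points do not overlap.

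The TRIM genes were also followed by their C-terminal domain. The PRY-SPRY list did not hold TRIM14 and TRIM16, which were listed by their lack of a RING finger and called in neither fit. Of its 17 tested members 4 were called, TRIM26 and TRIM62 higher and TRIM6 and TRIM65 lower, beside 11.6% of all genes. With the replicate term 10 of 17 were called (4 higher and 6 lower), beside 54.9% of all genes. The same shares of all genes, 11.6% without and 54.9% with that term, stand beside the calls of the smaller classes below. TRIM11 (0.43) was among those higher and TRIM7 (-0.51) and TRIM47 (-0.43) among those lower in that fit. Of the 4 chromatin co-regulators with a PHD finger and a bromodomain, TRIM66 fell, and with the replicate term TRIM24 (-0.41) was lower and TRIM33, a ligase for SMAD4, higher (0.36). TRIM28 ranged from 76.6 to 252 FPKM in vehicle and from 105 to 167 in bortezomib and was called in neither fit. In the NHL class, TRIM3 (0.26) was called with the replicate term among 2 tested. TRIM9, a neuronal ligase and the only tested member of 8 listed with a microtubule-binding COS box, was lower at -0.65 in that fit alone. This list left out MID1 (0.38) and MID2 (0.95), which were higher and called in that fit alone. Of the 4 tested members without a RING finger, TRIM66 alone was called. TRIM23 (0.52), which ends in an ARF GTPase domain, and TRIM37 (0.44), a peroxisomal and centrosomal ligase, were higher in 6 of 6 pairs and called with the replicate term alone.

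TRIM16 and TRIM16L are near-identical paralogs on chromosome 17 whose reads can be shared, so their values are uncertain. TRIM16L was lower in 6 of 6 pairs (-0.61, called with the replicate term alone), from 58.1 and 32.0 FPKM to 28.6 and 14.9 in the control line. TRIM16 was at 20.9 and 9.98 FPKM in vehicle and 13.2 and 6.20 in bortezomib in the control line, at 16.6 and 6.27 against 18.6 and 9.64 in KO1, and at 21.0 and 8.99 against 18.7 and 10.6 in KO2. Both pairs were lower after bortezomib in the control line and higher in KO1, and the KO2 pairs differed in sign. Over the 3 lines TRIM16 was called in neither fit (-0.08). TRIM-type genes with other names were 5 tested, and none was called without the replicate term, beside 11.6% of all genes. In that fit 2 had an unadjusted limma p under 0.05, beside 3275 of 12194 genes tested. With the replicate term all 5 were called, beside 54.9% of all genes. MID2 (0.95), TRIML2 (0.72), MID1 (0.38) and PML (0.30) were higher and RNF207 (-0.42) was lower.

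Many TRIM genes are known to be induced by interferon. Of 8 such members tested, TRIM26 rose and TRIM6 fell, beside 11.6% of all genes called, and the median change was -0.11. TRIM21, the antibody receptor of the cytosol, and TRIM25, an activator of the RNA sensor RIG-I, were called in neither fit, at 0.02 and 0.04. Among 10 interferon-stimulated genes outside the family, STAT2 (0.90) and IRF7 (0.57) rose and OAS1 (-0.60) fell, beside 11.6% of all genes called. Their limma adjusted p-values were 0.0275 to 0.0388. With the replicate term 8 of these 10 were called, 3 higher and 5 lower, beside 54.9% of all genes. Both lists thus held called genes of either direction.

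The families were next compared line by line. No member was called in a single line without the replicate term, where 0.467% of all genes were called in the control line, against 0.238% for KO1 and 0.32% for KO2. Unadjusted limma p-values were under 0.05 for 6 F-box and 7 TRIM genes in the control line, while KO1 gave 3 and 5 and KO2 gave 3 and 6. Of the 12194 genes tested, 1498, 1153 and 1169 had such a p-value in the control line, KO1 and KO2. With the replicate term, 18 F-box and 14 TRIM genes were called in the control line (32.4% of all genes), 11 and 11 in KO1 (27.7%) and 12 and 10 in KO2 (27%). An exact permutation test of 2 libraries against 2 could not go below 0.333, so none was used. The change of a member in the control line and its mean change in the KO lines, which share no library, had the same sign for 36 of 47 F-box genes and 31 of 36 TRIM genes. Across genes, which are not independent replicates, Pearson's r was 0.83 and 0.86. Neither measure was taken over all genes tested, so it is not known whether the families differ from other genes in this.

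**Figure D4:**
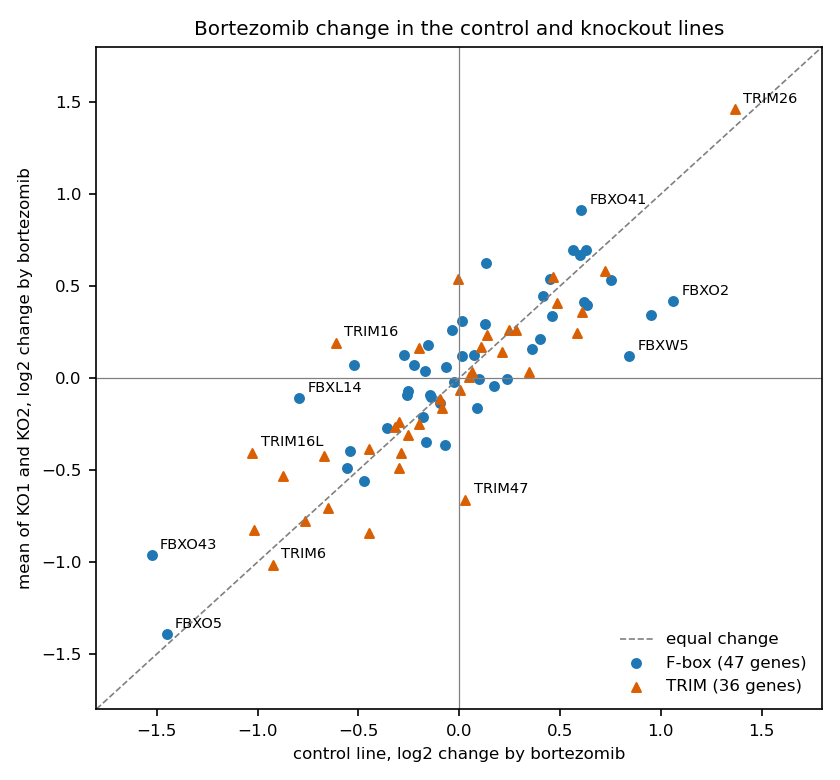
Log2(FPKM + 1) change by bortezomib in the control line (horizontal) against the mean change in KO1 and KO2 (vertical) for the 47 F-box (circles) and 36 TRIM genes (triangles) tested, with equal change as a dashed line. Most points follow the dashed line, with TRIM26 and FBXO5 at its ends, and FBXL14, TRIM16, TRIM47, FBXW5 and FBXO2 lie off it.

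Whether NFE2L1 loss altered the response was tested by the interaction, the change in the KO lines minus that in the control line. None of the 12194 genes tested was called, with or without the replicate term (0% in both), while limma's voom, run on whole reads with that term, called 115 genes and no member. Unadjusted limma p-values were under 0.05 for 0 members without that term and for 7 F-box and 3 TRIM genes with it. Of the 12194 genes tested, 115 without and 1305 with the replicate term had such a p-value. The lowest adjusted p among the members was 0.175, for TRIM16 (0.81 ± 0.19, SE, limma with the replicate term). FBXL14 had an interaction of 0.69 ± 0.17 (SE, limma with the replicate term, adjusted p = 0.196). It was at 7.51 and 7.46 FPKM in vehicle and 3.76 and 4.02 in bortezomib in the control line, against 11.7 and 8.27 and then 9.30 and 7.74 in KO1, and 11.6 and 9.65 and then 10.5 and 10.3 in KO2. Its control libraries separated by treatment and its libraries of each KO line overlapped, but the difference between lines did not pass the threshold. The lowest interactions were FBXW5 (-0.73) and TRIM47 (-0.69), whose limma adjusted p-values with the replicate term were 0.333 and 0.407.

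In vehicle, no F-box or TRIM gene was called between the KO1 and KO2 mean and the control line, beside 0.344% of all genes. Nor was any unadjusted limma p of a member under 0.05, beside 561 of 12194 genes tested. With the replicate term 6.18% of all genes were called (3.42% higher and 2.76% lower), beside 1 of 47 F-box genes and 0 of 36 TRIM genes. Unadjusted p-values in that fit were under 0.05 for 9 F-box and 7 TRIM genes, beside 2644 of 12194 genes tested. The called gene was FBXO34, named after its values were seen. It was at 8.69 and 13.1 FPKM in the control line, at 9.12 and 7.30 in KO1 and at 8.43 and 7.81 in KO2, with a change of -0.67 ± 0.15 (SE, limma with the replicate term, adjusted p = 0.0347). The call rested on the high R2 control library, since its unnumbered partner lay inside the range of the KO libraries. Treating the unnumbered libraries as R1 ended this call (limma adjusted p = 0.292).

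FBXW8, which assembles with CUL7 rather than CUL1, had the highest value of any member in this contrast in both fits. It was at 4.00 and 1.94 FPKM in the control line, at 7.97 and 3.74 in KO1 and at 6.63 and 4.00 in KO2, which gave 0.73 ± 0.34 without and 0.78 ± 0.20 with the replicate term (SE, limma adjusted p = 0.9999 and 0.0523). When the unnumbered libraries counted as R1 it was called (limma adjusted p = 0.0213). Without the replicate term the lowest F-box value was that of FBXO43 (-0.68), and the TRIM extremes were TRIM8 (0.60) and TRIM9 (-0.54), none of them called in either fit. The KO1 and KO2 comparisons share the control libraries and are given side by side: FBXW8 was at 0.76 and 0.69, TRIM8 at 0.55 and 0.66, FBXO43 at -0.75 and -0.61, and TRIM9 at -0.81 and -0.27. TRIM genes were higher in the KO mean for 29 of 36 members, with a median of 0.16 beside 0.04 and 55.8% higher over the 12194 genes tested. Leaving out the R2 control library put this median at -0.04, with 15 of 36 members higher, beside -0.095 and 41% over all genes tested. TRIM genes ran lower in R2 libraries (median difference from their partners -0.392). This fit sets an unnumbered control library against KO means that include R2, so it could not tell library from suffix.

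After bortezomib, the KO lines differed from the control line in a few members. Without the replicate term none was called, against 0.164% of all genes. Unadjusted limma p-values in that fit were under 0.05 for 2 F-box and 2 TRIM genes, beside 697 of 12194 genes tested. With that term 7.66% of all genes were called, beside FBXL14, FBXW4 and FBXO2 among 47 F-box genes and TRIM8 and TRIM25 among 36 TRIM genes. FBXL14 was 0.95 ± 0.15 higher (SE, limma with the replicate term, adjusted p = 0.00732), and each of its KO libraries lay above both control libraries. It overlaps WNT5B on the other strand. FBXO2 was lower by 1.11 on the log2 scale (-1.11 ± 0.19, SE, limma with the replicate term, adjusted p = 0.00961), from 6.25 and 5.08 FPKM in the treated control line to between 1.11 and 2.34 in the treated KO lines.

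TRIM8 was at 13.9 and 8.12 FPKM in the treated control line, at 24.6 and 19.5 in KO1 and at 38.2 and 20.6 in KO2, a difference of 1.05 ± 0.21 (SE, limma with the replicate term, adjusted p = 0.0211). TRIM25 was at 11.3 and 8.45 FPKM in the control line, at 20.1 and 19.6 in KO1 and at 17.7 and 15.2 in KO2, a difference of 0.86 ± 0.20 (SE, limma with the replicate term, adjusted p = 0.0371). For both genes the KO libraries lay above the control libraries without overlap. How many of all genes tested separate in this way was not counted, for these genes or for FBXL14 and FBXO2. The same libraries gave the calls. FBXW4, named after its values were seen, was 0.55 higher (limma with the replicate term, adjusted p = 0.0413), and its groups overlapped. In vehicle, the KO minus control difference with the replicate term was already -0.47 for FBXO2 and 0.49 for TRIM25, neither of them called. Without that term TRIM8 and FBXL14 were among the 3 highest of their families in vehicle, and they were not called either.

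**Figure D5:**
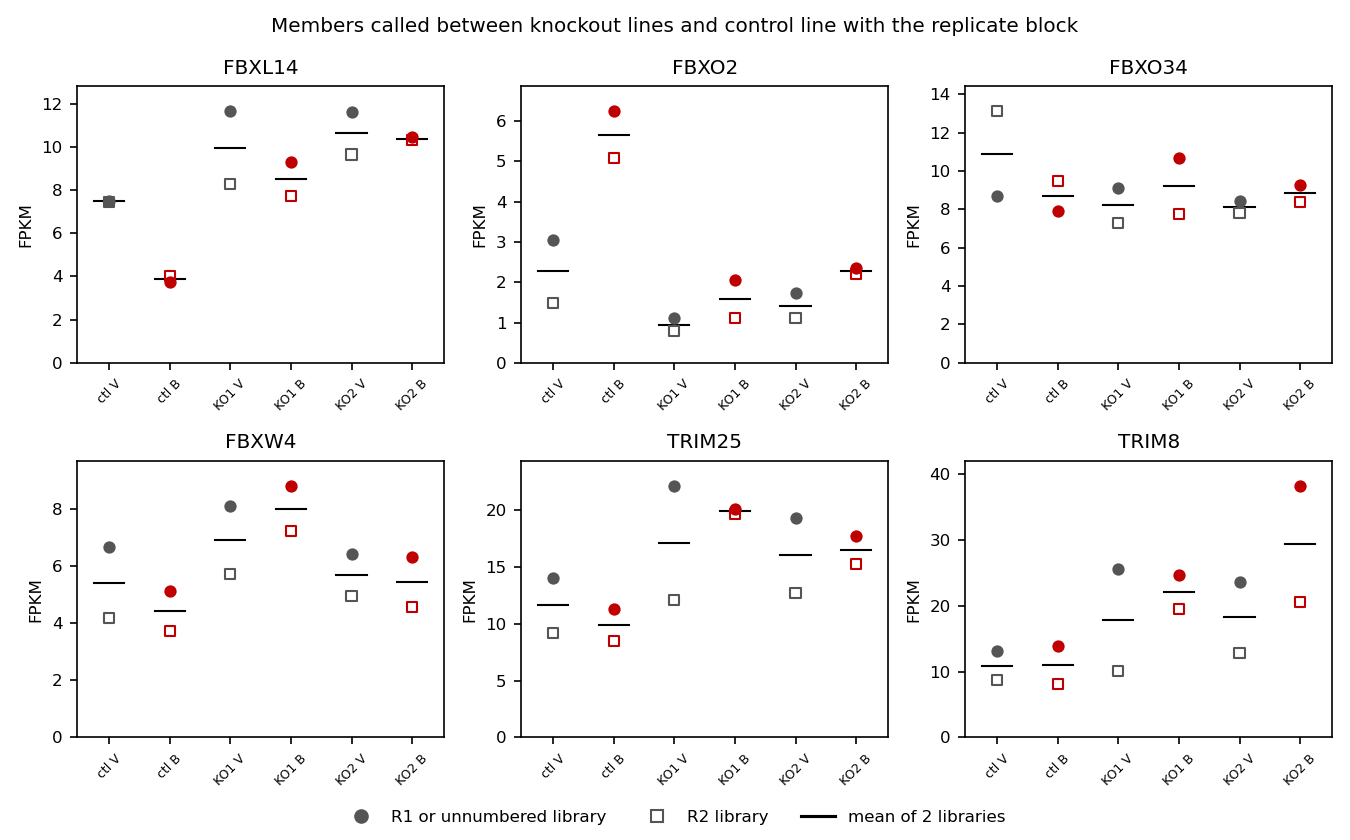
FPKM by library for the 6 members called for the knockout with the replicate term, in the same layout as the plot of the genes called for bortezomib. FBXL14, TRIM25 and TRIM8 are higher and FBXO2 is lower in the treated KO libraries than in the treated control libraries, and FBXO34 stands out through 1 vehicle-treated control library at 13.1 FPKM.

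Members with a known tie to NFE2L1, its relatives or the proteasome were listed whatever their values. FBXO6, which binds sugar chains including those of NFE2L1, lay between 1.03 and 3.94 FPKM in vehicle and between 2.58 and 5.81 in bortezomib. FBXO7, a partner of the proteasome regulator PSMF1, changed by 0.44 and FBXO22, a ligase for the NFE2-family repressor BACH1, by 0.48, and both were higher in 6 of 6 pairs and called with the replicate term alone. In vehicle, KO minus control differences of FBXW11 (0.00), FBXO6 (0.17), FBXO7 (0.01), FBXO22 (-0.10) and TRIM21 (0.40) were called in neither fit. Transcript half-lives and protein levels were not measured, and in bulk libraries fewer cells of a kind and less RNA per cell cannot be told apart.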

How the data were processed

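FPKM from 12 RNA-seq libraries were used as deposited, 1 column per library. The submitters' processing notes name CASAVA, STAR 2.5, HTSeq 0.6.1, DESeq2 and build hg19, whereas 132 of 137 members had the position of GENCODE 29 (GRCh38), so the build of the counting is not settled. The strand setting is not given in the sources used here. FPKM times length gave whole reads for 100% of values within 0.01, and summed to 1000000 per library. Groups came from the labels. The main model was limma 3.58.1 (R 4.3.3, lmFit and eBayes with trend) on log2(FPKM + 1), with 1 mean per group and all 12 libraries. Genes with a mean of at least 1 FPKM were tested, which kept 12194, and p-values were Benjamini-Hochberg adjusted over all of them. A fit with the title suffix as a block is given beside it, because replicate deviations correlated across genes in all 15 pairs of groups (r 0.70 to 0.89, median 0.81). The unnumbered control libraries had their own level, so line differences averaged over the treatments rest on the R2 libraries in that fit. Members, lists and tests were chosen with earlier results of these data known. Named genes were those called without the block, the 6 highest and 6 lowest bortezomib changes, the 3 highest and 3 lowest knockout and interaction values, the 5 highest levels and known partners of NFE2L1, per family. Alternatives were other replicate terms, a pseudocount of 0.1, no low-value filter, a common sum, no mitochondrial genes, voom on the recovered reads, each set of suffixes alone and each library left out. Python 3.11.15, numpy 2.4.6 and pandas 2.3.3 read the files, and the models were tested on simulated data.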

Additional observations from a re-analysis of the deposited data

Results flagged for a closer look

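In 9 of the 83 tested members both pairs of libraries of 1 line moved one way with bortezomib while both pairs of another line moved the other way. The share over all genes tested was not counted, and very small changes can meet this rule. These differences between single lines were not tested on their own, and none of the 9 was called for the interaction. TRIM16, whose reads can be shared with TRIM16L, changed by -0.61 in control cells and by 0.35 in KO1, a difference of -0.97, while its KO2 pairs changed by -0.15 and 0.22. FBXL6 changed by -0.52 in control cells, by 0.17 in KO1 and by -0.03 in KO2, where its R2 pair was at -0.001. The control line thus differed from KO1 by -0.69 and KO1 from KO2 by 0.20. FBXW4 had the same order of signs, with the control line differing from KO1 by -0.42 and KO1 from KO2 by 0.26. FBXO34 and FBXO18 were lower after bortezomib in both control pairs and higher in both pairs of each KO line. For FBXO34 the control line differed by -0.42 from KO1 and by -0.38 from KO2, and for FBXO18 by -0.32 and -0.35. FBXO33 was lower in KO2 alone, which differed from the control line by 0.32 and from KO1 by 0.43 (control or KO1 minus KO2). TRIM35 and FBXO3 were higher in both control pairs and below 0 in both KO2 pairs, with control minus KO2 differences of 0.40 and 0.23. The KO2 R2 pair of FBXO3 was at -0.001, which is no clear change. For TRIM21 the control line changed by 0.05 and KO1 by -0.065, a difference of 0.11.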

How the results depend on the processing

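With the replicate block, with the unnumbered libraries counted as R1, with a common sum and the block, and with voom (limma) on the recovered reads and the block, the F-box calls were 24, 24, 23 and 26 for bortezomib over the 3 lines, 18, 18, 18 and 20 in the control line, 11, 10, 11 and 13 in KO1, 12, 12, 12 and 15 in KO2, 1, 1, 1 and 3 for the knockout in vehicle, 3, 5, 2 and 5 in bortezomib and 0 each for the interaction. The TRIM calls were 22, 23, 22 and 24, then 14, 14, 14 and 16, then 11, 12, 11 and 13, then 10, 10, 9 and 14, then 0, 0, 0 and 1, then 2, 3, 2 and 3, and 0 each. Over all genes, the interaction gave 115 calls with voom and the block and 7 without the low-value filter, none of them a member. Without the low-value filter 1 TRIM gene was called in the control line and 2 (TRIM31 and TRIM67) for the knockout in bortezomib. With the line as a block, the R2 libraries alone gave 17 F-box and 10 TRIM calls for bortezomib, and their partners alone 20 and 22. Leaving out 1 library at a time gave 3 to 4 F-box and 3 to 6 TRIM calls over the 3 lines and 0 in the other comparisons. The TRIM count was 3 without the KO1 bortezomib R1, the KO2 vehicle R2 or the KO2 bortezomib R1 library, and 4 without either control bortezomib library or the R2 bortezomib library of KO1 or KO2. Of these 12 fits, FBXO2 lost its call in 11, TRIM65 in 10, TRIM62 and TRIM66 in 9 each and TRIM45 in 4. FBXO2 also lost it with a pseudocount of 0.1 (limma adjusted p = 0.0576), FBXO2, TRIM62 and TRIM66 without the filter (0.0965, 0.0698 and 0.0756) and FBXO2, TRIM62 and TRIM65 with a common sum (0.107, 0.0736 and 0.057). Each fit with 1 library left out also called fewer of all genes tested than the fit to all libraries, so lost calls were not confined to these members. Signs changed for uncalled genes alone. With the R2 libraries alone FBXO21 was 0.17, TRIM28 0.27 and TRIM16 0.0531, and with their partners alone FBXL19 was -0.077, FBXL17 -0.0903, TRIM21 -0.0465 and TRIM25 -0.18. With 1 library left out, the ranges for bortezomib were -0.15 to 0.19 for FBXL17, -0.26 to 0.21 for FBXO21, -0.18 to 0.12 for FBXO27, -0.29 to 0.14 for TRIM16, -0.12 to 0.15 for TRIM21, -0.0942 to 0.18 for TRIM25 and -0.31 to 0.0904 for TRIM28. They were -0.76 to 0.24 for TRIM16 in the knockout in vehicle and -0.69 to 0.0138 for TRIM33 in the interaction. With mitochondrial genes left out of the scaling, 63 values of named genes and 14 counts of calls kept their direction and their side of the threshold. The cause was not tested. A lone library left in a group was assumed to vary like the other groups.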
